A study of Mus musculus with 12 samples.

Results

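p53 and its feedback genes were followed in the RNA-seq data of primary mouse embryonic fibroblasts (MEFs). The 7 genes, out of 37991 gene identifiers counted, are Trp53, which encodes p53, together with Mdm2, Mdm4, Ppm1d, Ccng1, Trp53inp1 and Zmat3. They were chosen by name, as regulators and targets of p53 that act back on it, and matched by mouse gene symbol. Earlier results of these data were known when they were chosen. The 12 samples form 4 groups of 3: wild-type MEFs and MEFs homozygous for the E2f1 3KR knock-in allele (3KR MEFs), each untreated or exposed to neocarzinostatin (NCS) at 250 ng/ml for 3 h. In the 3KR allele the lysines of E2F1 that become acetylated are replaced by arginine in the germ line, so every cell of the embryo carries the change. All groups were of the FVB strain, came from embryos of 13.5 days and were at passage 3. The labels number the samples of a group but do not say whether they came from separate embryos or cultures. The p-values therefore measure the spread between these samples, which may be technical.

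p53 is a transcription factor held at a low level by Mdm2, a ubiquitin ligase that marks it for degradation, and by the Mdm2-related protein Mdm4, which binds Mdm2 and masks the activation domain of p53. When DNA breaks, as it does under the radiomimetic drug NCS, kinases phosphorylate p53 and its regulators, p53 accumulates as a protein, and it switches on Mdm2 and other genes that dampen it. Among these, Ppm1d encodes the Wip1 phosphatase, which removes phosphates from p53 and from the damage kinases, and Ccng1 encodes cyclin G1, which brings a phosphatase to Mdm2. Trp53inp1 and Zmat3 are also induced by p53, although the protein of the former helps in the phosphorylation of p53 and that of the latter, an RNA-binding zinc finger protein, binds p53 mRNA, so neither acts simply as an inhibitor. Much of the control of p53 itself is exerted on the protein, which RNA-seq does not measure.

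The libraries held 33203757 to 45279321 counted reads, and of all genes 15327 passed the filter on low counts and were tested, among them all 7 members. Replicate 3 of wild-type MEFs stood apart from its fellow replicates in both treatments, where the chi-square of a pair of libraries, averaged over genes, was 7.34 to 9.14 for pairs that include it and no more than 2.29 for the rest. E2f1 itself had 1042 to 1296 normalized counts in the 12 samples. Since 3KR is a change of the coding sequence, this level does not check the genotype. Normalized counts of Xist, the RNA that coats the silenced X of females, were 32.3 to 62.5 in wild-type MEFs and 30590 to 35635 in 3KR MEFs. Those of the Y-linked gene Ddx3y were 5370 to 5822 and at most 16.2. The genotype and the sex of the cells cannot be told apart here. Fibroblast markers were abundant throughout, with a summed level over 10 genes of 44656 to 46112 CPM (counts scaled to equal library totals) in wild-type and 50922 to 54469 in 3KR MEFs, and 9 of the 10 were higher in untreated 3KR MEFs. Of 10 macrophage markers, all were higher in untreated 3KR than in untreated wild-type MEFs, at a sum of 220.1 to 222 against 103 to 121 CPM, and 198 to 206 against 109 to 123 CPM after NCS. Of 8 Schwann cell and neural crest markers, 6 were lower, at 48.3 to 49.2 against 229.7 to 233 CPM, and 40.6 to 41.6 against 219 to 224 CPM after NCS. No marker of these 3 lists was at or under 3 counts. Skeletal muscle markers summed to 134 to 143 CPM in wild-type and 52.6 to 57.7 CPM in 3KR MEFs, nearly all from Des and Acta1. Untreated wild-type and 3KR MEFs had 4583 and 1589 mean normalized counts of Des, and 694 and 454 of Acta1. Myod1, Myog and Myf5 of the same list had at most 13.3 in any sample and did not pass the filter. Markers of endothelial and epithelial cells summed to at most 6.59 and 3.29 CPM. These markers move with each genotype difference given here, and their part in it was not tested. In bulk RNA, fewer cells of a type and less RNA per cell cannot be told apart.

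The promoter windows of Ccng1 and Mdm2 are shown because these were the members that differed most between the groups. Each window runs from 250 bases before to 50 bases after the transcription start of the RefSeq annotation (GRCm38.p6) and is written in the direction of the gene. Windows were on hand for 5 of the 7 members. They were searched for the p53 consensus decamer, whose pattern is the same on both strands, and for a full site of 2 decamers up to 13 bases apart with at most 2 mismatches. The Ccng1 window (chr11:40755237-40755536, minus strand) held a full site with 1 mismatch and no gap, the better of 2 matches, given in capitals from position -195 relative to the start. The Mdm2 window (chr10:117710709-117711008, minus strand) held a decamer without mismatch, given in capitals from position -186, and no full site.
Ccng1: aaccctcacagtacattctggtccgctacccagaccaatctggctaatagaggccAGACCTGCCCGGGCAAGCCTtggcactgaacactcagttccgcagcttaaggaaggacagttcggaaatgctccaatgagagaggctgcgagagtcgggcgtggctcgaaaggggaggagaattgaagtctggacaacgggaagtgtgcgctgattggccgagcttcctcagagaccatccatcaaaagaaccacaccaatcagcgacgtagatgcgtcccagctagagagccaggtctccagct
Mdm2: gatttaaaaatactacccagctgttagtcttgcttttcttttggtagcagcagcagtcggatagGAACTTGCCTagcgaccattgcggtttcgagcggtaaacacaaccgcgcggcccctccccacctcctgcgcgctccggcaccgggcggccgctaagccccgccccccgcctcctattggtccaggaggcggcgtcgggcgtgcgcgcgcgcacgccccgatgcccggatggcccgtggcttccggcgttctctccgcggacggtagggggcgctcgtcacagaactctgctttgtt

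The windows of Ppm1d and Trp53 also held 1 decamer without mismatch each, from positions -132 and -75, and neither held a full site. Both Mdm4 windows held none of these motifs. Among all 32851 mouse promoter windows, 8.36% held a decamer without mismatch and 10.1% a full site by the same rule, so such matches are not rare. The matches describe letters in these windows and say nothing about binding. Sequence outside the windows was not searched, so a site elsewhere in or near a gene would be missed.

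In the GENCODE M21 annotation (GRCm38), Trp53 is at chr11:69580359-69591873 on the plus strand, Ppm1d at chr11:85311244-85347066 (plus), Ccng1 at chr11:40748552-40755311 (minus), Mdm2 at chr10:117688875-117710758 (minus), Mdm4 at chr1:132959484-133030561 (minus), Trp53inp1 at chr4:11156431-11174379 (plus) and Zmat3 at chr3:32334792-32366014 (minus). All are protein-coding, and none shares exon bases with another annotated gene.

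The levels of the members spanned a wide range. Per length of exon (RPKM, reads scaled to exon length and library size), untreated wild-type MEFs had 143 ± 5.66 (SD, n = 3) for Ccng1, the highest, followed by 32.5 ± 0.721 for Mdm2 and 30.5 ± 1.28 for Trp53. Trp53inp1 was at 15.2 ± 0.418, Zmat3 at 12.1 ± 0.602 and Ppm1d at 4.59 ± 0.669 RPKM, and Mdm4 was lowest at 2.10 ± 0.0148. This order was the same in the NCS-treated samples of both genotypes. In untreated 3KR MEFs it changed at 1 place, where Trp53 at 32.2 ± 0.669 RPKM stood above Mdm2 at 18.8 ± 0.178. In no group did the samples of neighbours in this order overlap. The lengths are those of all annotated exons of a gene, which places Mdm4, with 14798 bases of annotated exons, lower than a count of its main transcript would. The order of close neighbours, such as Mdm2 (5083 bases) and Trp53 (4045 bases) in untreated wild-type MEFs, also depends on these lengths.

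**Figure D1:**
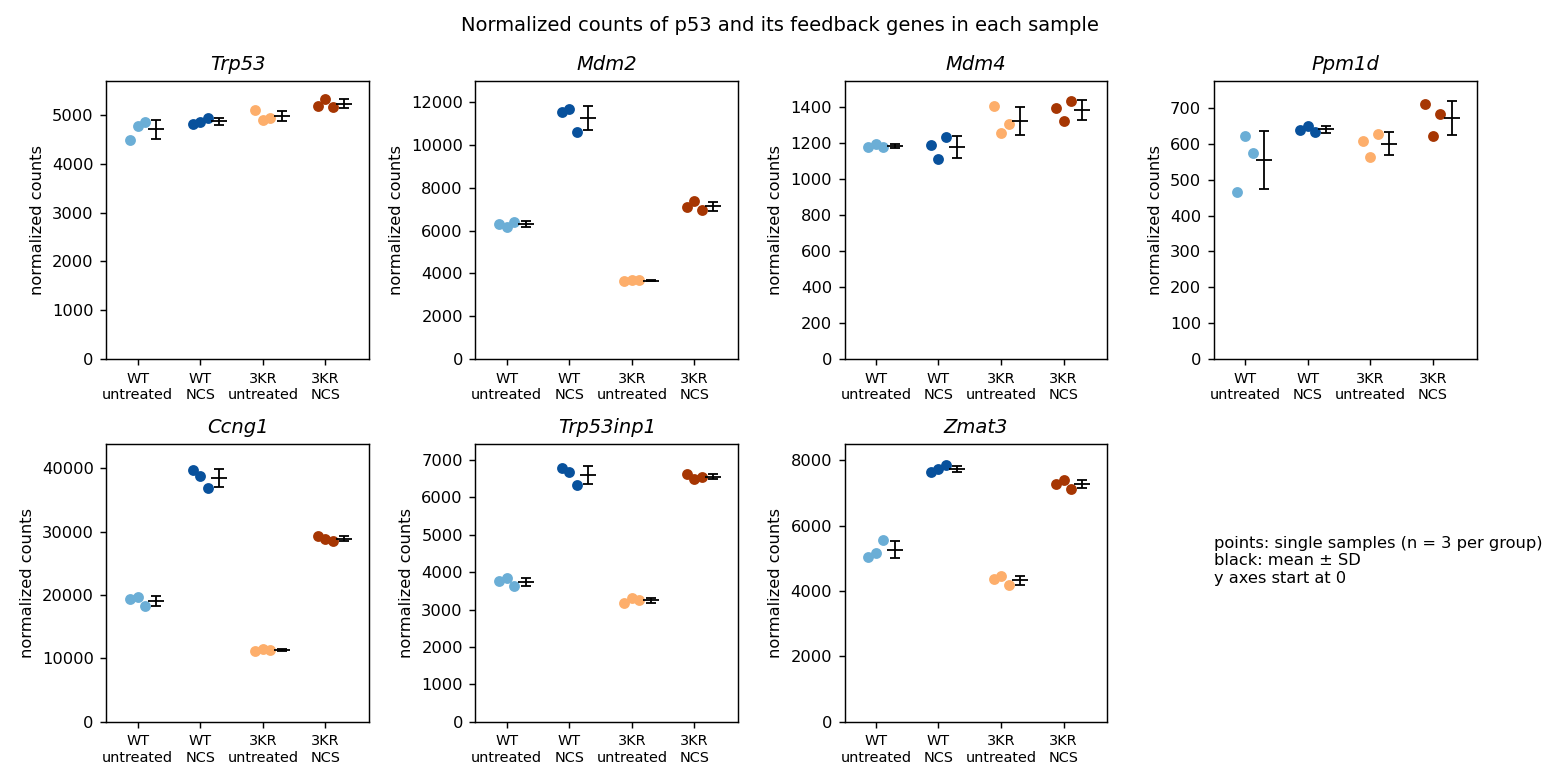
Normalized counts (y axis, linear and from 0) of the 7 genes in each of the 12 samples, by group (x axis), with points for single samples and black bars for the mean ± SD of 3. Mdm2 and Ccng1 are lower in both 3KR groups than in the wild-type group of the same treatment, and Trp53 lies between 4483 and 5329 in all samples.

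Trp53 mRNA itself hardly moved with NCS. Its normalized counts (counts divided by the size factor of the library) were 4483, 4771 and 4858 in untreated wild-type MEFs and 4805, 4851 and 4942 after NCS. In 3KR MEFs they were 5097, 4904 and 4942 untreated and 5183, 5329 and 5161 after NCS. The treated and untreated samples overlapped in wild-type MEFs, and in 3KR MEFs the 3 treated samples were just above the untreated ones. The log2 fold change by edgeR was 0.05 (standard error 0.03, FDR = 0.364) in wild-type and 0.07 (standard error 0.03, FDR = 0.126) in 3KR MEFs, with 95% intervals of -0.02 to 0.11 and 0.0037 to 0.14. The FDR is the p of edgeR's quasi-likelihood test after Benjamini-Hochberg adjustment across the 15327 genes, and a gene is called at an FDR under 0.05.

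Mdm2, the ubiquitin ligase for p53, rose with NCS in both genotypes. The normalized counts of replicates 1, 2 and 3 were 6315, 6159 and 6425 in untreated wild-type MEFs and 11540, 11665 and 10629 after NCS. In 3KR MEFs they were 3625, 3694 and 3671 untreated and 7089, 7375 and 6948 after NCS. No treated sample overlapped the untreated samples of its genotype, and all untreated 3KR samples were below all others. The log2 fold change for NCS was 0.84 (standard error 0.04, edgeR FDR = 4.6e-14) in wild-type and 0.96 (standard error 0.04, edgeR FDR = 5.1e-15) in 3KR MEFs. After NCS, 3KR MEFs had 7137 ± 218 (SD, n = 3) normalized counts of Mdm2, against 6300 ± 134 (SD, n = 3) in wild-type MEFs that had received none.

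Mdm4, the gene of the Mdm2 partner, did not pass the test for NCS. It had 1178, 1193 and 1176 normalized counts in untreated and 1188, 1108 and 1234 in wild-type MEFs given NCS. In 3KR MEFs it had 1405, 1252 and 1303 untreated and 1393, 1322 and 1433 after NCS. Treated and untreated samples overlapped in both genotypes. The log2 fold changes were -0.01 (95% interval -0.11 to 0.09, edgeR FDR = 0.907) and 0.07 (95% interval -0.03 to 0.17, edgeR FDR = 0.342). A processed pseudogene on the X chromosome, Mdm4-ps, carried nearly as many reads, with 917 to 1182 normalized counts over the 12 samples, and how reads that fit both copies were counted is not given in the sources used here. The level of Mdm4 is uncertain to that extent. The sum of both was 2116 ± 30.4, 2141 ± 49.9, 2373 ± 108 and 2530 ± 63.7 (SD, n = 3 each) in untreated and NCS-treated wild-type and untreated and NCS-treated 3KR MEFs. The pseudogene of Trp53, Trp53-ps, had at most 4 reads in any sample.

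Ppm1d, the Wip1 phosphatase gene, did not pass the test for NCS in either genotype, and its call in wild-type MEFs depended on the fit. Its normalized counts were 465, 623 and 575 in untreated wild-type MEFs and 639, 650 and 632 after NCS, and 609, 565 and 628 in untreated and 712, 621 and 683 in NCS-treated 3KR MEFs. The treated samples lay above the untreated ones in wild-type MEFs, where replicate 1 of the untreated samples was lowest, and they overlapped in 3KR MEFs. The log2 fold change was 0.21 (standard error 0.08, edgeR FDR = 0.0610) in wild-type and 0.16 (standard error 0.08, edgeR FDR = 0.137) in 3KR MEFs. With the replicate number as a block, Ppm1d was called there at the same log2 fold change of 0.21 (edgeR FDR = 0.0169). It was also called without replicate 2 (0.30, edgeR FDR = 0.0118) or replicate 3 (0.24, edgeR FDR = 0.0359) of the untreated wild-type samples, without replicate 3 of both treatments (0.25, edgeR FDR = 0.0166) and with no filter on low counts (0.21, edgeR FDR = 0.0255), and its log2 fold change was 0.09 without replicate 1.

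Ccng1, the gene of cyclin G1, had the largest rise among the members. Its normalized counts were 19359, 19725 and 18241 in untreated and 39766, 38889 and 36912 in wild-type MEFs given NCS. In 3KR MEFs they were 11212, 11531 and 11287 untreated and 29280, 28885 and 28594 after NCS. The 4 groups were separate from each other. By log2 fold change the rise was 1.01 (standard error 0.03, edgeR FDR = 3.9e-16) in wild-type MEFs, the third lowest p of all 15327 genes, and 1.35 (standard error 0.03, edgeR FDR = 1.3e-18) in 3KR MEFs, the second lowest.

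Trp53inp1 and Zmat3 rose by less. Trp53inp1 had 3756, 3840 and 3628 normalized counts in untreated and 6780, 6668 and 6324 in wild-type MEFs given NCS. In 3KR MEFs it had 3181, 3307 and 3247 untreated and 6620, 6491 and 6532 after NCS. The untreated 3KR samples were lowest, and the treated samples of the genotypes overlapped. Zmat3 had 5053, 5166 and 5547 untreated and 7630, 7721 and 7840 after NCS in wild-type MEFs, and 4351, 4445 and 4174 untreated and 7280, 7390 and 7134 after NCS in 3KR MEFs. Its 4 groups did not overlap. The log2 fold changes in wild-type and 3KR MEFs were 0.81 (edgeR FDR = 3.3e-14) and 1.01 (edgeR FDR = 6.4e-16) for Trp53inp1 and 0.55 (edgeR FDR = 3.7e-11) and 0.75 (edgeR FDR = 2.0e-13) for Zmat3, with standard errors of 0.03 to 0.04.

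In all, NCS raised 4 of the 7 members in wild-type MEFs (Mdm2, Ccng1, Trp53inp1 and Zmat3) and lowered none, where 14.3% of all tested genes were called higher and 12.4% lower. In 3KR MEFs it raised the same 4, where 15.8% of all genes were called higher and 15.0% lower. The samples with and without NCS did not overlap for 5 members in each genotype, against 35.1% of all tested genes in wild-type and 47.6% in 3KR MEFs. The median log2 fold change of the members was 0.55 in wild-type and 0.75 in 3KR MEFs, beside 0.005 and -0.0008 for all genes. By p, Trp53inp1, Mdm2 and Zmat3 took places 15, 20 and 87 of 15327 in wild-type MEFs and 8, 17 and 36 in 3KR MEFs. With only the 6 samples of 3KR MEFs in the fit, Trp53 (log2 fold change 0.07, edgeR FDR = 0.0218) and Ppm1d (0.16, edgeR FDR = 0.0347) were also called.

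**Figure D2:**
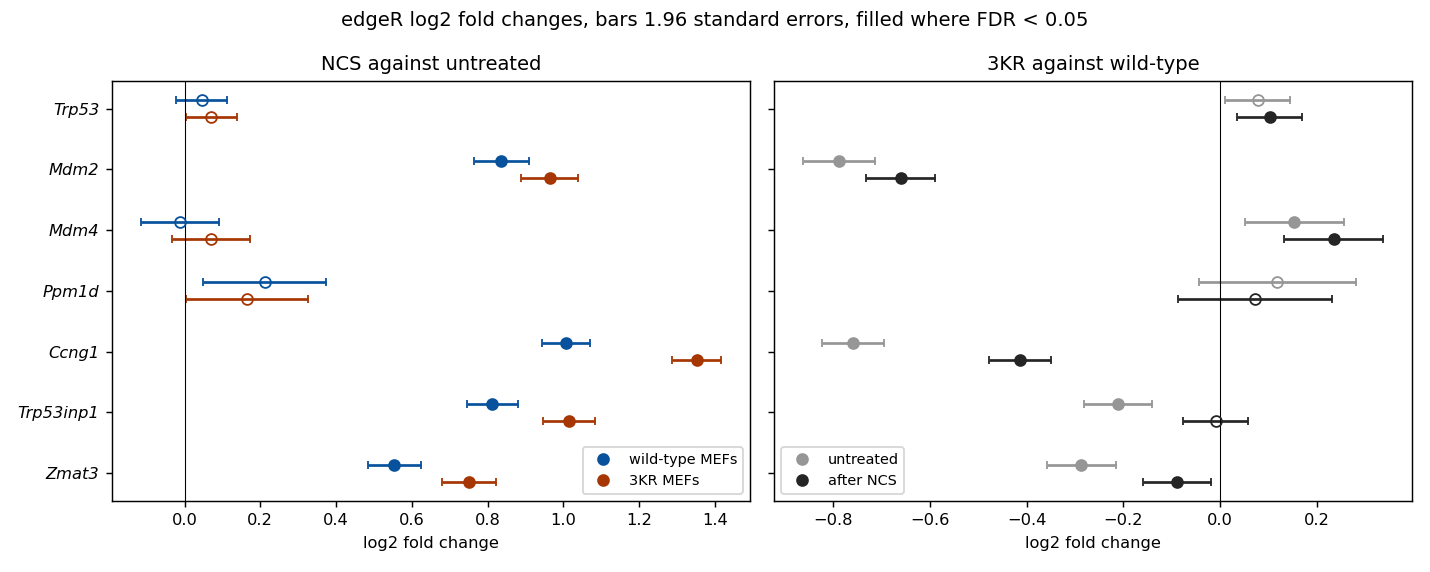
Log2 fold changes by edgeR (x axis) of the 7 genes, for NCS against untreated (left) and for 3KR against wild-type (right), with bars for the 95% interval and filled points where the FDR is under 0.05. Mdm2 and Ccng1 are at -0.79 and -0.76 in untreated 3KR MEFs, and Trp53, Mdm4 and Ppm1d lie between -0.01 and 0.23 in every comparison shown.

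Without treatment, 3KR MEFs had less mRNA of 4 of the 7 members than wild-type MEFs and more of 1. Of all tested genes, 23.6% were called lower and 22.1% higher, so a difference between the genotypes was common among genes in general. Mdm2 stood at 58.1% of its wild-type mean (log2 fold change -0.79, standard error 0.04, edgeR FDR = 2.3e-14) and Ccng1 at 59.4% (-0.76, standard error 0.03, edgeR FDR = 3.0e-15). Zmat3 at -0.29 (edgeR FDR = 5.9e-07) and Trp53inp1 at -0.21 (edgeR FDR = 3.0e-05) were lower by less. Mdm4 was higher (0.15, standard error 0.05, edgeR FDR = 0.0194), a call that was lost without replicate 1 of the untreated 3KR samples (0.11, edgeR FDR = 0.145). The pseudogene Mdm4-ps was higher by 0.17 (edgeR FDR = 0.00863). Trp53 (0.08, edgeR FDR = 0.0682) and Ppm1d (0.12, edgeR FDR = 0.261) did not pass. Without replicate 3 of the untreated wild-type samples, Trp53 was called at 0.10 (edgeR FDR = 0.0136), and without replicate 3 of both treatments at 0.11 (edgeR FDR = 6.5e-04).

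Untreated samples of the genotypes did not overlap for 6 of the 7 members, all but Ppm1d, and for 53.5% of all genes. The members' median log2 fold change was -0.21, beside -0.0004 for all genes.

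After NCS, Mdm2 stood at 63.3% of the wild-type mean in 3KR MEFs (log2 fold change -0.66, standard error 0.04, edgeR FDR = 4.1e-13) and Ccng1 at 75.1% (-0.41, standard error 0.03, edgeR FDR = 2.0e-10). Trp53inp1 no longer differed beyond its error (-0.01, 95% interval -0.08 to 0.06, edgeR FDR = 0.848). Zmat3 was called at -0.09 (edgeR FDR = 0.0437), and this call was lost with each of the 6 samples left out in turn, with no filter on low counts (edgeR FDR = 0.0763) and with at least 10 counts in every sample (edgeR FDR = 0.0556). Mdm4 was higher by 0.23 (standard error 0.05, edgeR FDR = 7.6e-04), and Mdm4-ps by 0.25 (edgeR FDR = 2.8e-04). Trp53 was higher by 0.10 (standard error 0.03, edgeR FDR = 0.0168), which was lost without replicate 1 of the wild-type (edgeR FDR = 0.0571) or replicate 2 of the 3KR samples (edgeR FDR = 0.0777). Ppm1d, at 0.07, did not pass (95% interval -0.09 to 0.23, edgeR FDR = 0.5004). The 3 members called lower and 2 called higher compare with 23.6% and 22.9% of all genes, and 5 members did not overlap between genotypes, against 54.3% of all genes. Both the count and its members depended on single samples. Leaving out wild-type replicate 1 or 3KR replicate 2 left 3 members called, Mdm2, Ccng1 and Mdm4.

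Whether the genotypes responded differently to NCS was read from the interaction term of the fit, the log2 change in 3KR minus the log2 change in wild-type MEFs. As a fold change, the response was larger in 3KR MEFs for 3 of the 7 members, where 1.86% of all tested genes were called in that direction and 1.87% in the other. For Ccng1 the log2 difference was 0.34 (standard error 0.05, edgeR FDR = 5.7e-05), and every fit with 1 sample left out kept it between 0.31 and 0.38 and called. Trp53inp1 differed by 0.20 (standard error 0.05, edgeR FDR = 0.0198) and Zmat3 by 0.20 (standard error 0.05, edgeR FDR = 0.0282). Both of these calls were lost without replicate 1 or replicate 3 of the untreated 3KR samples or replicate 1 of the NCS-treated 3KR samples, which left Ccng1 alone, with FDRs of 0.0596 to 0.111 for the other two. The call of Trp53inp1 was also lost without replicate 2 of the untreated wild-type samples (edgeR FDR = 0.0604) or replicate 3 of the NCS-treated 3KR samples (edgeR FDR = 0.0523). That of Zmat3 was lost without replicate 1 (edgeR FDR = 0.0759) or 2 (edgeR FDR = 0.0629) of the NCS-treated wild-type samples or replicate 2 of the NCS-treated 3KR samples (edgeR FDR = 0.0885). For Mdm2 the difference was 0.13 (95% interval 0.02 to 0.23), with an unadjusted p of 0.0238 that did not pass over all genes (edgeR FDR = 0.216). Trp53 (0.02, 95% interval -0.07 to 0.12), Mdm4 (0.08, -0.06 to 0.23) and Ppm1d (-0.05, -0.27 to 0.18) did not pass either. The rise of Ccng1 in 3KR MEFs was larger as a fold change, not in counts gained. It began at 11343 ± 167 normalized counts, against 19108 ± 773 in wild-type MEFs (SD, n = 3 each). After NCS it ended at 28920 ± 345, against 38522 ± 1462 normalized counts (SD, n = 3 each). Mean normalized counts of Trp53inp1 went from 3742 to 6591 in wild-type and from 3245 to 6548 in 3KR MEFs. Those of Zmat3 went from 5255 to 7731 and from 4324 to 7268, so for both genes the counts gained were also larger in 3KR MEFs.

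Ratios between members within a library do not depend on how libraries are scaled to each other. The ratio of Mdm2 to Trp53 counts was 1.34 ± 0.0610 in untreated wild-type and 0.736 ± 0.0220 in untreated 3KR MEFs (SD, n = 3 each). After NCS it was 2.32 ± 0.146 and 1.37 ± 0.0190. The treated 3KR samples, at 1.35 to 1.38, thus lay within the range of the untreated wild-type samples, at 1.29 to 1.41. The ratio of Mdm2 to Mdm4 was 5.33 ± 0.154 and 9.62 ± 0.960 in wild-type MEFs without and with NCS, and 2.78 ± 0.187 and 5.17 ± 0.372 in 3KR MEFs. Ccng1 to Mdm2, a pair of p53 targets, was 3.04 ± 0.184 and 3.10 ± 0.0236 in the untreated genotypes, with overlapping samples, and 3.42 ± 0.0737 in wild-type and 4.05 ± 0.119 in 3KR MEFs after NCS, without overlap. Mdm4 to Trp53 stayed between 0.228 and 0.278 in all 12 samples. These ratios are of read counts and are not corrected for gene length.

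**Figure D3:**
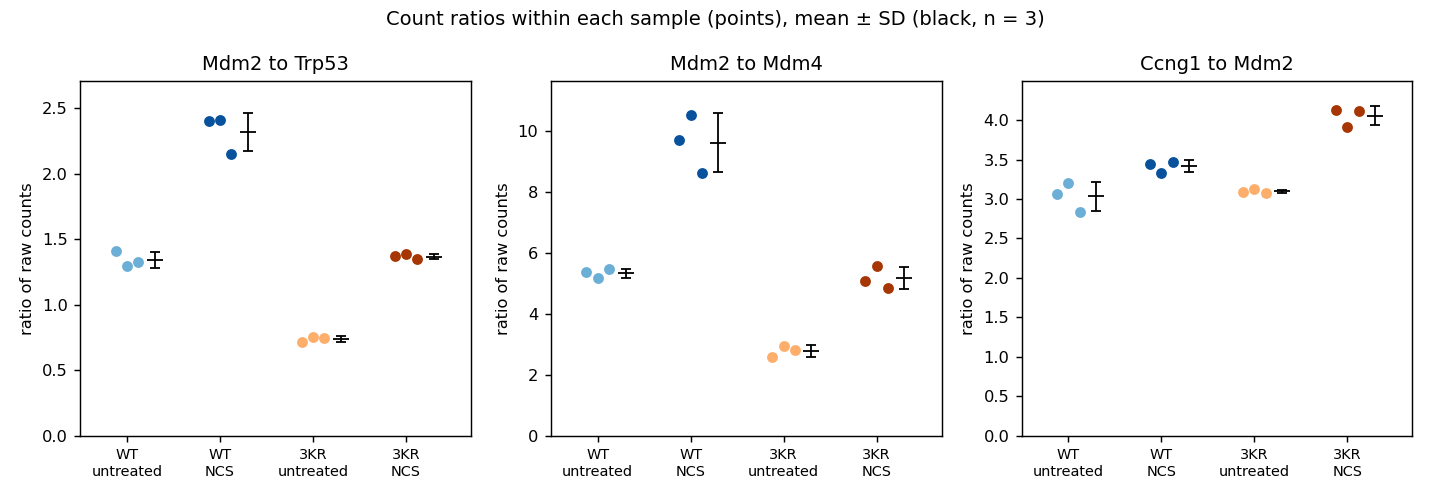
Ratios of raw counts within each sample (y axis, linear and from 0) for Mdm2 to Trp53, Mdm2 to Mdm4 and Ccng1 to Mdm2, by group (x axis), with points for samples and black bars for the mean ± SD of 3. NCS-treated 3KR MEFs, at 1.37 for Mdm2 to Trp53, are level with untreated wild-type MEFs at 1.34.

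Other genes of the pathway come from 4 lists, written with earlier results of these data known. Of 30 further p53 target genes, NCS raised 19 and lowered 3 in wild-type MEFs and raised 21 and lowered 2 in 3KR MEFs, with median log2 fold changes of 0.48 and 0.62. Over all tested genes, it raised 14.3% and lowered 12.4% in wild-type MEFs, and raised 15.8% and lowered 15.0% in 3KR MEFs. The lowest p-values in wild-type MEFs were those of the CDK inhibitor gene Cdkn1a (log2 fold change 1.18, edgeR FDR = 1.3e-18), the BH3-only gene Pmaip1 (2.05, edgeR FDR = 9.7e-17), Ei24 (1.12, edgeR FDR = 1.2e-15) and the TNF receptor family gene Eda2r (1.29, edgeR FDR = 6.2e-15). In untreated 3KR MEFs 17 of the 30 were lower and 5 higher than in wild-type MEFs (median -0.18), and after NCS 15 were lower and 6 higher (median -0.11). Among all tested genes, 23.6% were lower and 22.1% higher untreated, and 23.6% were lower and 22.9% higher after NCS. Cdkn1a, at -0.83 untreated and -0.67 after NCS, lay close to Mdm2, whereas Pmaip1 was lower by more, at -2.12 and -1.82. As a fold change, the response was called larger in 3KR MEFs for 7 of the 30 and smaller for none. Eda2r (0.34, edgeR FDR = 0.00710) and Cdkn1a (0.16, edgeR FDR = 0.0189) were among the 7. The log2 difference was called positive for 1.86% of all tested genes and negative for 1.87%.

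**Figure D4:**
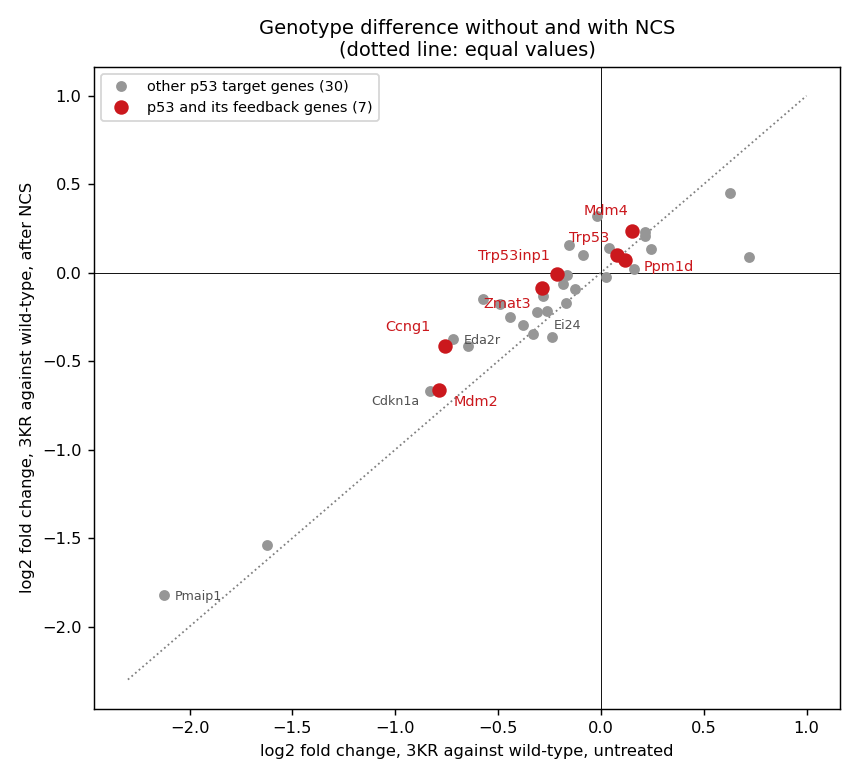
Genotype difference by edgeR (3KR against wild-type MEFs, log2 fold change), untreated (x axis) and after NCS (y axis), for the 7 genes in red and 30 other p53 target genes in grey, of which the 4 with the lowest p for NCS in wild-type MEFs are named. Of the red points, all but Ppm1d lie above the dotted line of equal values, and Mdm2, at -0.79 and -0.66, lies beside Cdkn1a, at -0.83 and -0.67. Height above the line is the difference in NCS response, which among the red points was called for Ccng1, Trp53inp1 and Zmat3 only. Its median over all tested genes was 0.0039.

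Among 23 regulators of p53 or Mdm2, NCS raised 3 and lowered 4 in wild-type MEFs and raised 6 and lowered 5 in 3KR MEFs, with medians of -0.01 and 0.01. These counts stand beside 14.3% raised and 12.4% lowered of all tested genes in wild-type, and 15.8% and 15.0% in 3KR MEFs. Pml, whose nuclear bodies gather p53 and its modifying enzymes, rose by 0.56 (edgeR FDR = 3.9e-09) in wild-type and 0.47 (edgeR FDR = 3.7e-08) in 3KR MEFs. The matrix-binding protein gene Banp fell, with log2 fold changes of -0.61 (edgeR FDR = 5.5e-08) and -0.63 (edgeR FDR = 5.3e-08). So did the damage kinase gene Atr, at -0.36 (edgeR FDR = 2.5e-04) and -0.39 (edgeR FDR = 7.2e-05), and Trp53bp1, whose protein binds chromatin at DNA breaks, at -0.26 (edgeR FDR = 4.3e-04) and -0.22 (edgeR FDR = 0.00243). Between the untreated genotypes, 9 of the 23 were higher and 6 lower in 3KR MEFs (median 0.09), and after NCS 8 and 4 (median 0.10). Among all tested genes the shares higher and lower were 22.1% and 23.6% untreated, and 22.9% and 23.6% after NCS. Named after their values were seen, Cdkn2a and Hipk2 had the most negative genotype differences of the 23 regulators. Cdkn2a, which encodes the Mdm2 inhibitor Arf as well as the CDK inhibitor p16, had 3250 ± 124 and 1736 ± 61.1 normalized counts in untreated wild-type and 3KR MEFs (SD, n = 3 each, log2 fold change -0.91, edgeR FDR = 4.9e-13), and its log2 fold change after NCS was -1.05 (edgeR FDR = 3.9e-14). The counts do not separate the transcripts of Arf and p16. Hipk2, a kinase of p53, was lower by a log2 fold change of -0.90 (edgeR FDR = 5.4e-10) and -0.74 (edgeR FDR = 1.2e-08). The response differed for 1 of the 23, the DNA-dependent protein kinase gene Prkdc, at -0.65 (edgeR FDR = 0.00556), where 1.87% of all tested genes were called in that direction.

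Of 13 other ubiquitin ligases reported to act on p53, 12 were tested. The ligase gene left out, Syvn1, had been listed as Synv1, a spelling that matched no counted gene, and was not analysed here. NCS raised Rchy1 (0.15, edgeR FDR = 0.0292) and lowered Trim28 (-0.16, edgeR FDR = 1.7e-04) in wild-type MEFs. In 3KR MEFs it raised Rchy1 (0.21, edgeR FDR = 0.00309), Ube4b (0.14, edgeR FDR = 0.0150) and Topors (0.14, edgeR FDR = 0.00456) and lowered Trim28 (-0.15, edgeR FDR = 2.6e-04) and Cul9 (-0.51, edgeR FDR = 1.6e-04). Between genotypes 2 were higher and 2 lower without treatment, 3 higher and 0 lower after NCS, and in the difference of response none of the 12 passed. Over all tested genes, NCS raised 14.3% and lowered 12.4% in wild-type MEFs, and 15.8% and 15.0% in 3KR MEFs. The genotype comparisons called 22.1% of them higher and 23.6% lower untreated, and 22.9% and 23.6% after NCS. In the difference of response 1.86% were called higher and 1.87% lower. The medians of the list were 0.02 and 0.05 for NCS in wild-type and 3KR MEFs and -0.02 for both genotype comparisons.

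Of 15 paralogs of the members, 13 were tested, and Trp73 and Ppm1n did not pass the filter. In wild-type MEFs NCS raised 4 and lowered 3. Ccng2, the sister gene of Ccng1, rose by 0.39 (edgeR FDR = 6.1e-06) in wild-type and 0.27 (edgeR FDR = 4.7e-04) in 3KR MEFs, from 1367 ± 69.8 and 1241 ± 34.7 normalized counts (SD, n = 3 each). The phosphatase genes Ppm1e (-0.89, edgeR FDR = 5.3e-06) and Ppm1f (-0.18, edgeR FDR = 0.00280) fell in wild-type MEFs and Ppm1a rose (0.19, edgeR FDR = 2.2e-04). In 3KR MEFs 3 rose and 5 fell. Between genotypes 2 were higher and 6 lower untreated, and 1 was higher and 6 lower after NCS. Over all tested genes, NCS raised 14.3% and lowered 12.4% in wild-type MEFs, and 15.8% and 15.0% in 3KR MEFs. The genotype comparisons called 22.1% of them higher and 23.6% lower untreated, and 22.9% and 23.6% after NCS. The response differed for 1 of the 13, Ppm1l (-0.30, edgeR FDR = 0.0156), named after its value was seen, where 1.87% of all tested genes were called in that direction. The medians of the list ran from -0.07 to -0.02 over these 4 comparisons. The other p53 family gene tested, Trp63, was highest in untreated 3KR MEFs at 26.0 ± 3.44 normalized counts (SD, n = 3), and Trp73 had at most 7.18 in any sample.

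Across the 12 samples, the genes whose log2 CPM followed each member most closely were found among 9595 genes with a mean log2 CPM of at least 3. The points share the 4 groups, so these correlations describe the pattern over groups. For Mdm2 they were Arap2 (Pearson r = 0.995), Pmaip1 (0.994) and Cdc34 (0.994). For Ccng1 they were Aen (0.998), Zfp385a (0.996) and Inka2 (0.996), for Trp53inp1 Pgd (0.997), Trim11 (0.996) and Polk (0.993), and for Zmat3 Pidd1 (0.995), Foxo3 (0.994) and Klf4 (0.993). The 3 members that did not pass the test for NCS had looser followers. The closest were Tshz3 for Trp53 (0.965), Kmt5c for Mdm4 (0.939) and Arsb for Ppm1d (0.878). Between members, Mdm2 and Ccng1 had a correlation of 0.972 and Trp53 and Mdm2 one of -0.08.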

How the data were processed

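Poly(A) RNA of the 12 MEF samples was made into libraries with a stranded kit (Illumina) and sequenced on a HiSeq instrument. The authors deposited raw read counts per Ensembl gene, not normalized. The submitters' processing notes name TopHat, HTSeq, DESeq and the build mm9. Versions, the annotation and the strand setting of the counting are not given in the sources used here.

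Groups were taken from the sample labels. The members and gene lists were chosen with earlier results of these data known. Symbols, exon lengths and positions came from GENCODE M21 (GRCm38), in which 32919 of 37991 identifiers were found, and promoter windows from RefSeq (GRCm38.p6). Since these differ from mm9, no coordinates were taken from the files.

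Genes were filtered with filterByExpr, normalized by TMM and tested in R 4.3.3 by the two-sided quasi-likelihood method of edgeR 4.0.16. The model had 1 coefficient per group, all 12 samples, and Benjamini-Hochberg adjustment (FDR) over 15327 genes with a threshold of 0.05. The common biological coefficient of variation was 3.95%. Fold changes and their standard errors are those of the fit, 95% intervals are normal intervals from these standard errors, and percentages of wild-type are ratios of mean normalized counts. For normalized counts, the deposited counts were divided by size factors (DESeq2 1.42.0), and RPKM use TMM library sizes. Counts at or under 3 were treated as the floor, for counting error only. The script was tested on simulated counts.

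The genes named include the 7 members and the ligases called for NCS. From the lists of targets, regulators and paralogs, the 4 genes with the lowest p for NCS in wild-type MEFs are named. By correlation in log2 CPM (prior count 2), the 3 closest genes are named for Mdm2, Ccng1, Trp53inp1 and Zmat3. Only the closest gene is named for Trp53, Mdm4 and Ppm1d. Cdkn2a, Hipk2, Prkdc, Ppm1l, Trp63 and Trp73 are list genes named after their values were seen. Untreated and NCS samples share replicate numbers. Deviations of same-numbered samples from their group means correlated at 0.234 to 0.468 in wild-type MEFs, over the limit of 0.1 in every pair and so taken as paired. Replicates 1 and 2 of wild-type MEFs correlated as highly across numbers (0.223 and 0.236), so the numbers set apart replicate 3 alone. In 3KR MEFs the correlations were 0.001 to 0.0502, not taken as paired. The main fit had no replicate block in either genotype, so the pairing entered only through the block among the alternatives. The alternatives were DESeq2 size factors, the Wald test of DESeq2, a fit restricted to the 6 samples of a comparison, no filter, a minimum of 10 counts in every sample, the block, each sample left out in turn and wild-type replicate 3 left out in both treatments.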

Additional observations from a re-analysis of the deposited data

Results flagged for a closer look

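The response to NCS differed between wild-type and 3KR MEFs, by a test of the difference itself, for 3 members, where 1.86% of all tested genes were called in the same direction. The log2 difference (3KR minus wild-type) was 0.34 for Ccng1, 0.20 for Trp53inp1 and 0.20 for Zmat3. The response of Ccng1 was 1.01 in wild-type and 1.35 in 3KR MEFs, that of Trp53inp1 0.81 and 1.01, and that of Zmat3 0.55 and 0.75. The untreated 3KR samples of all 3 genes were below the untreated wild-type samples. Without replicate 1 or 3 of the untreated 3KR samples, or replicate 1 of the NCS-treated 3KR samples, 1 member was called, Ccng1, and the calls of Trp53inp1 and Zmat3 were lost.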

How the results depend on the processing

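Over the alternatives, 444 of 483 log2 fold changes of the members kept their direction and their side of the threshold, 22 lost the call, 10 gained it and 7 changed sign. All sign changes were among values near 0 that no fit called, and came from leaving out single samples: Mdm4 for NCS in wild-type MEFs (-0.048 to 0.030), Ppm1d between untreated genotypes (-0.00060 to 0.21), Trp53inp1 between genotypes after NCS (-0.033 to 0.013), and the difference in response for Trp53 (-0.00030 to 0.059) and Ppm1d (-0.14 to 0.073). The number of members called stayed within 1.5 times the main count, except with single samples left out. It was then 3 to 4 between genotypes after NCS and 1 to 3 for the difference in response, as against 4 to 5 for NCS in wild-type, 4 in 3KR MEFs and 4 to 6 between untreated genotypes. The DESeq2 size factors and the Wald test of DESeq2 changed no call of a member. With the replicate number as a block, 5 members were called for NCS in each genotype: Ppm1d was added in wild-type (edgeR FDR = 0.0169) and Trp53 in 3KR MEFs (edgeR FDR = 0.0376), where the numbers share no more than a label, and the block changed no other call. Scaling by library total moved 8 mean normalized counts of the members by more than their SD, and scaling by TMM moved none. Standard errors of 0.03 to 0.08 on the log2 scale for a comparison, and up to 0.12 for the difference in response, limit what 3 samples per group resolve. The cause of these changes was not tested.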
